A study of Mus musculus with 34 samples.

Results

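The 10 genes described here encode components of TGF-beta and activin signalling, which restrains hepatocyte growth, in mouse liver after partial hepatectomy (PHx, surgical removal of most of the liver). They were chosen by symbol: the ligand genes Tgfb1, Inhba and Inhbe, the receptor genes Tgfbr1, Tgfbr2 and Acvr1b, and the inhibitor genes Fst, Smad7, Skil and Bambi. All 10 were found among the 78298 genes of the table, and all 10 were among the 14980 genes that passed the filter on low counts. The lowest level of any of them in any library was 0.888 CPM, the count scaled by the library's total over the genes tested and its TMM factor, for Fst.

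TGF-beta and the activins are dimeric ligands that bring a type II receptor and a type I receptor together; the type I receptor then phosphorylates Smad2 and Smad3, which move to the nucleus with Smad4 and regulate transcription. In liver this pathway is known for arresting hepatocytes in the cell cycle, for promoting their death, and for activating stellate cells to make collagen, and it is held in check by secreted binding proteins, by inhibitory Smads and by nuclear corepressors. After a hepatectomy hepatocytes re-enter the cell cycle while these brakes are present, so the levels of ligands, receptors and inhibitors are usually read together.

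Bulk RNA-seq of whole liver was available from young adult male C57/Bl6 mice of both genotypes, taken untreated (0 hours) or 6 or 24 hours after PHx. SIRT1intKO mice carry floxed Sirt1 alleles and a Cre transgene under the Villin promoter, which deletes the gene in the intestinal epithelium, and WT mice carry the floxed alleles without Cre, so that the loxP sites are shared by both. The groups held 6 WT livers at 0 hours, 6 at 6 hours and 4 at 24 hours, and 6, 5 and 7 SIRT1intKO livers at the same times. Library totals ran from 14892122 to 23480492 counts, with a median of 16807340. Sirt1 in liver ranged from 6.92 to 23.1 CPM and did not pass the test between genotypes at any time, with log2 differences (SIRT1intKO minus WT) of -0.02, -0.13 and -0.65 at 0, 6 and 24 hours (smallest adjusted p = 0.0726, edgeR). Because the deletion is in the gut, this checks no label.

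Some livers taken at 24 hours stood apart from the rest of their group. On the first principal component of all genes tested, which held 40.7% of the variance, WT replicates 1 and 2 lay at 86.2 and 95.9, whereas WT replicates 3 and 4 lay at -8.02 and -17.6. SIRT1intKO replicate 5 lay at 8.10, and the other 6 SIRT1intKO livers lay between 49.7 and 80.3. The 12 livers at 0 hours lay between -78.2 and -51.0, and the 11 livers at 6 hours lay between 11.1 and 39.1. The results at 24 hours are therefore given with all libraries. By a choice made after seeing the data, they are also given without the 3 livers between those at 0 and 6 hours. Their labels were kept, and whether these 3 livers carry the right time or group was not tested, a limit of every value at 24 hours. The labels give the 0 hour livers a run of library numbers of their own, so that surgery and any difference in handling between these series cannot be told apart.

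At 6 hours after PHx, transcripts of Inhbe, which encodes activin E, and of Fst, which encodes follistatin, had risen and those of Inhba, which encodes activin A, had fallen in both genotypes. A gene passes the test here at an adjusted p under 0.05 (edgeR quasi-likelihood test, Benjamini-Hochberg over all genes tested). In WT mice 7 of 10 genes passed at 6 hours, 5 higher and 2 lower, where 37.4% of all genes passed and 18.9% passed as higher. In SIRT1intKO mice 7 passed, 6 higher and 1 lower, against 38.4% of all genes, and 20.9% as higher. At 24 hours 6 passed in WT mice, 5 higher and 1 lower, against 34.1% of all genes, and 19.5% as higher. At 24 hours in SIRT1intKO mice 8 passed, 7 higher and 1 lower, against 50.2% of all genes, and 26.2% as higher. The median log2 change of the 10 genes was 0.58 in WT and 0.73 in SIRT1intKO mice at 6 hours, and 0.67 and 0.93 at 24 hours, beside medians of 0.02, 0.01, 0.02 and 0.04 over all genes tested.

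The groups did not overlap for 3 of the 10 genes in WT mice at 6 hours, against 24.1% of all genes, and for 6 in SIRT1intKO mice, against 26.2%. At 24 hours they did not overlap for 0 of 10 in WT mice, against 19.3% of all genes, and for 4 of 10 in SIRT1intKO mice, against 22%. Both genotypes were compared with their own 0 hour livers, but each genotype's 6 and 24 hour comparisons share those livers. In a bulk sample, fewer cells of a type and less RNA per cell cannot be told apart.

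**Figure D1:**
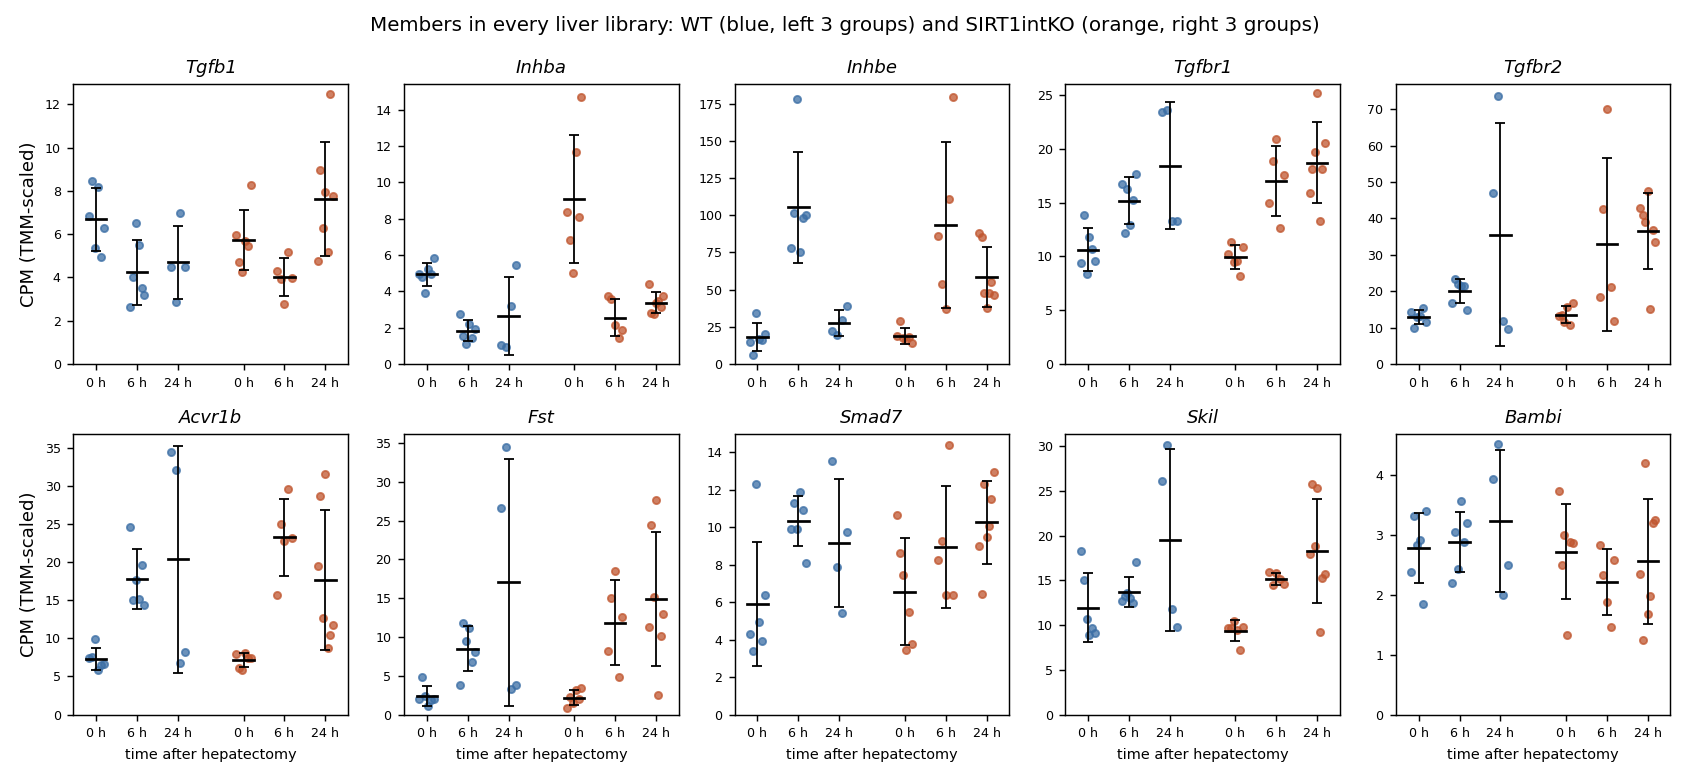
CPM of each of the 10 genes (vertical axes, linear from 0) in every library by group (horizontal axes), with WT in blue and SIRT1intKO in orange; points are livers, horizontal bars are means and error bars are SD. Inhbe was between 75.3 and 178 CPM in the 6 WT livers at 6 hours and at most 34.4 CPM at 0 hours, and Fst, Tgfbr2 and Acvr1b split into a high and a low pair among the 4 WT livers at 24 hours.

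Inhbe (ENSMUSG00000047492) encodes the beta-E chain of activin, a hepatokine made almost only by hepatocytes, and Inhba (ENSMUSG00000041324) encodes the beta-A chain of activin A. They changed in opposite directions, and the RefSeq promoter windows of both, 250 bases before to 50 bases after the start of transcription, are shown for that reason. The Inhbe window is chr10:127351799-127352098 on the minus strand and the Inhba window is chr13:16011601-16011900 on the plus strand, both in build GRCm38.p6. Capitals mark a match to the C/EBP-ATF response element (TGATGNAA on either strand), which lies at -181 to -174 in the Inhbe window.
Inhbe: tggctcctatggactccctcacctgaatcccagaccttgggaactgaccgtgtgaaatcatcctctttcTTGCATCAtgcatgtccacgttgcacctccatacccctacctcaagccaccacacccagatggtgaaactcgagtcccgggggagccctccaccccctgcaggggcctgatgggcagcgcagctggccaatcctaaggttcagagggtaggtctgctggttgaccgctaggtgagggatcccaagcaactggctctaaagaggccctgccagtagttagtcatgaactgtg
Inhba: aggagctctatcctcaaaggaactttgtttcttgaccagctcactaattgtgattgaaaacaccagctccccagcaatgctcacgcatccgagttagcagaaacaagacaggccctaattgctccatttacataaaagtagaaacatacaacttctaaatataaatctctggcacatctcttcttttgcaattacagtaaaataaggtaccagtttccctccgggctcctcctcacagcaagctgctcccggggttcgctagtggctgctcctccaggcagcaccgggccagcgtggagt

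The same element stood in 3.97% of the 32851 promoter windows of this length. AP-1 (TGANTCA), the cAMP response element (TGACGTCA), a palindromic Smad element (GTCTAGAC) and an E-box (CACGTG) were searched on both strands too, with no overlap between matches in the members, and stood in 7.81%, 1.79%, 0.213% and 7.15% of all windows. Promoter windows outside chromosome 18 were found for 6 of the 10 genes, and in these the only other match was an E-box at -54 to -49 of Acvr1b. A match is a description of the letters in a window.

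Inhbe had the largest rise of the 10 genes at 6 hours in WT mice and the second largest, after Fst, in SIRT1intKO mice. It ranged from 5.87 to 34.4 CPM with a median of 16.6 in WT livers at 0 hours, and from 75.3 to 178 CPM with a median of 99.2 at 6 hours. In SIRT1intKO livers it ranged from 14 to 28.7 CPM with a median of 17.8 at 0 hours, and the 5 livers at 6 hours held 86.2, 53.8, 37.1, 111 and 180 CPM. Every liver at 6 hours lay above every untreated liver of its genotype. The log2 change was 2.55 ± 0.34 (SE) in WT mice (5.85-fold, adjusted p = 8.9e-07, edgeR) and 2.31 ± 0.35 in SIRT1intKO mice (4.98-fold, adjusted p = 6.01e-06).

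At 24 hours the Inhbe transcript was near its untreated range in WT livers and remained above it in SIRT1intKO livers. The 4 WT livers held 22.4, 19.8, 29.3 and 39.0 CPM, and the 7 SIRT1intKO livers ranged from 37.6 to 88.4 CPM with a median of 48.0. The WT values overlapped those at 0 hours, and the SIRT1intKO values did not. The log2 change from 0 hours was 0.62 ± 0.36 in WT mice, which did not pass (adjusted p = 0.187, edgeR), and 1.63 ± 0.32 in SIRT1intKO mice (3.10-fold, adjusted p = 0.000129). From 6 to 24 hours Inhbe fell by 1.93 on the log2 scale in WT mice (SE 0.39, 3.81-fold lower, adjusted p = 0.000971), with no overlap between the groups. In SIRT1intKO mice the log2 change over the same interval was -0.68 ± 0.32 (adjusted p = 0.113), and it passed without SIRT1intKO replicate 3 at 6 hours (-0.88, adjusted p = 0.0402).

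The difference between genotypes in Inhbe at 24 hours missed the threshold. SIRT1intKO minus WT was 1.08 ± 0.37 on the log2 scale (2.11-fold, unadjusted p = 0.00593, adjusted p = 0.0717, edgeR), and 6 of the 7 SIRT1intKO livers lay above the highest WT liver. It passed in 2 of 34 fits that each left out 1 library and in 2 of 9 other fits, with a largest adjusted p of 0.263, without WT replicates 1 and 2 at 24 hours (0.77). It passed without WT replicate 2 at 0 hours (1.08, adjusted p = 0.0490), without SIRT1intKO replicate 5 at 24 hours (1.12, adjusted p = 0.0478), with DESeq2 in place of edgeR (1.09, adjusted p = 0.0318), and without the 3 libraries that stood apart (1.52, adjusted p = 0.0368). The interaction, which is the SIRT1intKO change from 0 hours minus the WT change, was 1.02 ± 0.49 (unadjusted p = 0.0446, adjusted p = 0.381).

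Inhba fell after PHx in both genotypes and was at most 14.7 CPM in any liver. In WT livers it ranged from 3.90 to 5.84 CPM with a median of 4.95 at 0 hours and from 1.12 to 2.77 CPM with a median of 1.75 at 6 hours. In SIRT1intKO livers it ranged from 4.98 to 14.7 CPM with a median of 8.20 at 0 hours, and the 5 livers at 6 hours held 3.72, 3.59, 2.14, 1.46 and 1.86 CPM. The groups did not overlap in either genotype. Inhba fell by 1.43 in WT mice (SE 0.32, 2.69-fold lower, adjusted p = 0.000745, edgeR) and by 1.84 in SIRT1intKO mice (SE 0.34, 3.57-fold lower, adjusted p = 7.84e-05) on the log2 scale.

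At 24 hours Inhba stayed below its untreated level in SIRT1intKO livers, which ranged from 2.77 to 4.40 CPM with a median of 3.36, all under the lowest value at 0 hours. It fell there by 1.43 on the log2 scale (SE 0.29, adjusted p = 0.000185, edgeR). The 4 WT livers at 24 hours held 1.05, 0.914, 3.19 and 5.43 CPM, so that replicates 1 and 2 were low and replicate 4 lay within the untreated range. The WT change of -0.89 ± 0.35 passed narrowly (adjusted p = 0.0495), and it no longer passed in 22 of 34 fits that each left out 1 library. The largest of these adjusted p values was 0.220, without WT replicate 2 at 24 hours.

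At 0 hours Inhba was the 1 gene of the 10 with an unadjusted p under 0.05 between genotypes. Its mean was 9.10 ± 3.52 CPM (SD, n = 6) in SIRT1intKO livers and 4.94 ± 0.628 CPM (SD, n = 6) in WT livers. The log2 difference of 0.88 ± 0.30 did not pass over all genes (unadjusted p = 0.00648, adjusted p = 1, edgeR), and the groups overlapped.

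Tgfb1 (ENSMUSG00000002603) encodes TGF-beta 1, which is made in liver mainly by nonparenchymal cells and secreted in a latent form. In WT livers it ranged from 4.95 to 8.48 CPM with a median of 6.57 at 0 hours and from 2.63 to 6.54 CPM with a median of 3.77 at 6 hours. The 5 SIRT1intKO livers at 6 hours held 4.30, 3.94, 2.77, 5.16 and 3.95 CPM, against 4.23 to 8.26 CPM with a median of 5.57 at 0 hours. The groups overlapped in both genotypes. Tgfb1 fell by 0.65 on the log2 scale in WT mice (SE 0.24, 1.57-fold lower, adjusted p = 0.0298, edgeR), and the SIRT1intKO change of -0.51 ± 0.25 did not pass (adjusted p = 0.111). The WT call was lost when any of WT replicates 2 and 4 at 0 hours or 1, 5 and 6 at 6 hours was left out, with log2 changes from -0.62 to -0.56 and adjusted p between 0.0574 and 0.0714.

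Tgfb1 then rose in SIRT1intKO livers between 6 and 24 hours. The 7 livers at 24 hours ranged from 4.76 to 12.5 CPM with a median of 7.76, and the log2 change from 6 hours was 0.92 ± 0.25 (1.89-fold, adjusted p = 0.00589, edgeR). The 4 WT livers at 24 hours held 4.49, 2.86, 6.96 and 4.48 CPM, and their change from 6 hours was 0.15 ± 0.27 (adjusted p = 0.753). SIRT1intKO minus WT at 24 hours was 0.70 ± 0.26 on the log2 scale (unadjusted p = 0.0117, adjusted p = 0.0999), and it passed without WT replicate 3 at 24 hours (0.93, adjusted p = 0.0441). Against 0 hours the changes at 24 hours were -0.51 ± 0.27 in WT mice (adjusted p = 0.140) and 0.41 ± 0.23 in SIRT1intKO mice (adjusted p = 0.129). The interaction at 24 hours was 0.92 ± 0.35 (unadjusted p = 0.0130, adjusted p = 0.267). Without the 3 libraries that stood apart, the difference was 1.15 (adjusted p = 0.0188) and the interaction was 1.37 (adjusted p = 0.0380). The summed stellate cell and fibroblast markers, with which Tgfb1 had an r of 0.67 over the 34 libraries after group means were removed, were 195, 192, 329 and 304 CPM in the 4 WT livers at 24 hours and 190 to 486 CPM in the 7 SIRT1intKO livers. The same r was 0.60 with the summed sinusoidal endothelial markers, which were 51.2, 55.4, 114 and 82.9 CPM in the 4 WT livers and 73.4 to 139 CPM in the SIRT1intKO livers at 24 hours. From 6 to 24 hours in SIRT1intKO livers 27.6% of all genes passed in either direction. Of the 9 stellate cell and fibroblast markers, 3 passed as higher and 2 as lower there. Their list includes Col1a1, which is also in the list of target genes below. Of the 6 sinusoidal endothelial markers, 0 passed as higher and 1 as lower. Of the 6 Kupffer cell markers, 1 passed as higher and 0 as lower. All 6 monocyte and all 6 neutrophil markers passed as higher there, with r of 0.06 and 0.07 for their sums with Tgfb1. These r include the split among the livers at 24 hours, and the part of these cells was not tested.

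Transcripts of the type I receptors rose in both genotypes. Acvr1b (ENSMUSG00000000532) encodes the activin type I receptor. It ranged from 5.81 to 9.85 CPM with a median of 7.03 in WT livers at 0 hours and from 14.3 to 24.6 CPM with a median of 16.4 at 6 hours. In SIRT1intKO livers it ranged from 5.87 to 8.02 CPM with a median of 7.40 at 0 hours, and the 5 livers at 6 hours held 15.6, 25, 22.7, 29.6 and 23.2 CPM. No liver at 6 hours overlapped the untreated livers of its genotype. The log2 change was 1.28 ± 0.32 in WT mice (2.43-fold, adjusted p = 0.00204, edgeR) and 1.71 ± 0.33 in SIRT1intKO mice (3.26-fold, adjusted p = 0.000167).

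At 24 hours the 4 WT livers held 34.4, 32, 6.81 and 8.21 CPM of Acvr1b, a high pair and a pair at the untreated level. The 7 SIRT1intKO livers ranged from 8.77 to 31.5 CPM with a median of 12.7, the lowest being replicate 5. The log2 change from 0 hours was 1.48 ± 0.35 in WT mice (adjusted p = 0.0016, edgeR) and 1.30 ± 0.31 in SIRT1intKO mice (adjusted p = 0.000944).

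Tgfbr1 (ENSMUSG00000007613) encodes the type I receptor for TGF-beta, and its changes were smaller. It ranged from 8.41 to 13.9 CPM in WT livers at 0 hours with a median of 10.1, and from 12.2 to 17.7 CPM with a median of 15.7 at 6 hours. The 5 SIRT1intKO livers at 6 hours held 15, 18.9, 20.9, 12.6 and 17.6 CPM, all above the untreated range of 8.19 to 11.4 CPM, whose median was 9.86. Tgfbr1 rose by 0.51 ± 0.16 on the log2 scale in WT mice (1.43-fold, adjusted p = 0.0127, edgeR) and by 0.77 ± 0.17 in SIRT1intKO mice (1.71-fold, adjusted p = 0.000571). At 24 hours the WT livers held 23.4, 23.7, 13.3 and 13.3 CPM, and the 7 SIRT1intKO livers ranged from 13.3 to 25.2 CPM with a median of 18.1. The changes from 0 hours were 0.79 ± 0.18 (adjusted p = 0.00104) and 0.91 ± 0.16 (adjusted p = 2.24e-05).

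Tgfbr2 (ENSMUSG00000032440) encodes the type II receptor that binds TGF-beta first. In WT livers it ranged from 9.81 to 15.3 CPM with a median of 13.1 at 0 hours and from 14.9 to 23.4 CPM with a median of 21.4 at 6 hours, a log2 change of 0.64 ± 0.37 that did not pass (adjusted p = 0.178, edgeR). In SIRT1intKO livers at 6 hours it held 18.4, 42.7, 70.2, 21.2 and 11.9 CPM, so that replicates 2 and 3 were high, replicates 1 and 4 lay just above the untreated range of 10.8 to 16.8 CPM, and replicate 5 lay inside it. The log2 change was 1.28 ± 0.38 (2.43-fold, adjusted p = 0.00907), and without replicate 3 at 6 hours it was 0.80 and did not pass (adjusted p = 0.0964).

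At 24 hours Tgfbr2 held 46.9, 73.6, 11.8 and 9.61 CPM in the 4 WT livers and ranged from 15.1 to 47.6 CPM with a median of 39.0 in the 7 SIRT1intKO livers. Replicate 5 was the lowest SIRT1intKO liver, and the others held at least 33.5 CPM. The log2 change from 0 hours was 1.47 ± 0.40 in WT mice (2.76-fold, adjusted p = 0.00579, edgeR) and 1.43 ± 0.36 in SIRT1intKO mice (2.70-fold, adjusted p = 0.0016). The WT call was lost without WT replicate 2 at 24 hours (0.83, adjusted p = 0.143).

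The inhibitors act at different steps, and follistatin acts first, outside the cell. Fst (ENSMUSG00000021765) encodes this protein, which binds activins and keeps them from their receptors. It ranged from 1.13 to 4.85 CPM with a median of 2.01 in WT livers at 0 hours and from 3.86 to 11.8 CPM with a median of 8.74 at 6 hours. In SIRT1intKO livers it ranged from 0.888 to 3.48 CPM with a median of 2.10 at 0 hours, and the 5 livers at 6 hours held 8.21, 15.1, 18.6, 4.79 and 12.6 CPM, all above the untreated range. Fst rose by 1.83 ± 0.52 on the log2 scale in WT mice (3.56-fold, adjusted p = 0.00591, edgeR) and by 2.43 ± 0.54 in SIRT1intKO mice (5.38-fold, adjusted p = 0.000723).

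At 24 hours Fst held 26.7, 34.5, 3.25 and 3.83 CPM in the 4 WT livers, so that replicates 1 and 2 were high and replicates 3 and 4 lay inside the untreated range. The 7 SIRT1intKO livers ranged from 2.53 to 27.7 CPM with a median of 13, with replicate 5 the lowest and the others at 10.1 CPM or more. The log2 change from 0 hours was 2.83 ± 0.56 in WT mice (7.10-fold, adjusted p = 0.000284, edgeR) and 2.75 ± 0.52 in SIRT1intKO mice (6.75-fold, adjusted p = 7.13e-05), the largest of the 10 genes at that time in each genotype.

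Skil (ENSMUSG00000027660) encodes SnoN, a nuclear corepressor of Smad complexes. In WT livers it ranged from 8.88 to 18.3 CPM with a median of 10.2 at 0 hours and from 12.5 to 17 CPM with a median of 13.1 at 6 hours (log2 change 0.19 ± 0.23, adjusted p = 0.537, edgeR). In SIRT1intKO livers it held 16, 14.5, 15.8, 15.2 and 14.6 CPM at 6 hours, all above the untreated range of 7.21 to 10.5 CPM, and rose by 0.69 ± 0.24 on the log2 scale (adjusted p = 0.0212). That call was lost without SIRT1intKO replicate 5 at 0 hours (0.60, adjusted p = 0.0645). At 24 hours the WT livers held 26.1, 30.2, 11.8 and 9.81 CPM and the SIRT1intKO livers ranged from 9.24 to 25.8 CPM with a median of 17.9. The changes from 0 hours were 0.70 ± 0.25 in WT mice (adjusted p = 0.0289) and 0.96 ± 0.22 in SIRT1intKO mice (adjusted p = 0.000688). The WT call was lost when any of WT replicates 3 to 6 at 0 hours or 1 and 2 at 24 hours was left out, with log2 changes from 0.41 to 0.67 and adjusted p between 0.0531 and 0.264.

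Smad7 (ENSMUSG00000025880), the inhibitory Smad that blocks the type I receptor and is itself induced by the pathway, passed in WT mice at 6 hours and in SIRT1intKO mice at 24 hours. In WT livers it ranged from 3.42 to 12.3 CPM with a median of 4.62 at 0 hours, replicate 3 being the highest, and from 8.09 to 11.9 CPM with a median of 10.4 at 6 hours. It rose by 0.81 ± 0.28 on the log2 scale (1.76-fold, adjusted p = 0.0235, edgeR), a call lost without WT replicates 1, 2 or 5 at 0 hours or 4 at 6 hours (0.70 to 0.75, adjusted p between 0.0512 and 0.0620). The 5 SIRT1intKO livers at 6 hours held 8.27, 9.30, 6.41, 14.4 and 6.41 CPM, and their change of 0.44 ± 0.30 did not pass (adjusted p = 0.240). At 24 hours the WT livers held 13.5, 7.88, 5.45 and 9.76 CPM (0.63 ± 0.31, adjusted p = 0.114). The SIRT1intKO livers ranged from 6.46 to 12.9 CPM with a median of 10.1, and their change of 0.65 ± 0.27 passed narrowly (adjusted p = 0.0485) and was lost in 25 of 34 fits that each left out 1 library, the largest adjusted p being 0.143 without SIRT1intKO replicate 4 at 0 hours.

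Bambi (ENSMUSG00000024232) encodes a transmembrane decoy receptor without a kinase domain. It passed in 0 of the 11 comparisons with edgeR and in 0 with DESeq2, with no unadjusted p under 0.170, and ranged over all 34 libraries from 1.25 to 4.51 CPM. Its 4 WT livers at 24 hours held 3.94, 4.51, 1.99 and 2.49 CPM. Its log2 changes from 0 hours lay between -0.30 and 0.21, with the smallest adjusted p at 0.406 (edgeR).

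**Figure D2:**
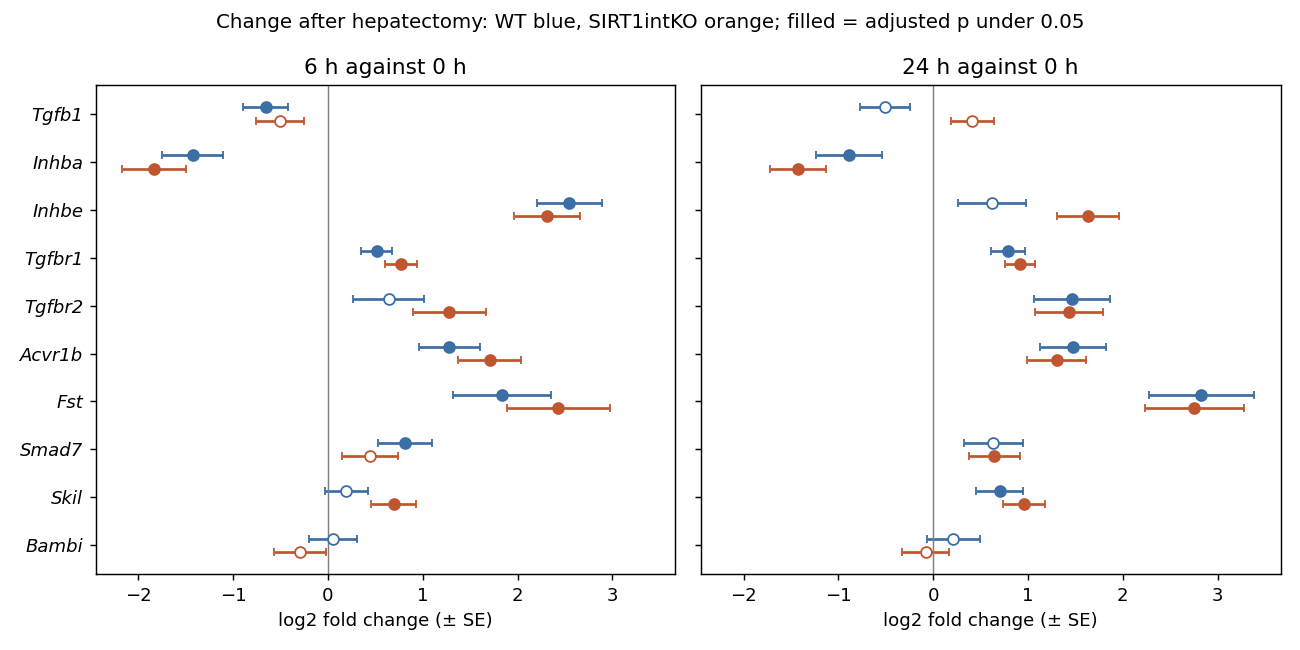
log2 fold change with its SE (horizontal axes) for each gene (vertical axis) at 6 hours (left) and 24 hours (right) against 0 hours, WT in blue and SIRT1intKO in orange; filled points have an adjusted p under 0.05. Inhbe was at 2.55 and 2.31 at 6 hours and at 0.62 in WT against 1.63 in SIRT1intKO mice at 24 hours, while Inhba lay below 0 in all 4 comparisons.

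The 6 WT calls at 24 hours rested on the same livers. Fst, Acvr1b, Tgfbr2, Tgfbr1 and Skil were each higher in WT replicates 1 and 2 than in replicates 3 and 4, and Inhba was lower. On the scale of log2(CPM + 2) minus the genotype's 0 hour mean, Fst was at 2.76 and 3.10 in WT replicates 1 and 2, at 0.31 and 0.46 in replicates 3 and 4, and at 0.14 in SIRT1intKO replicate 5, where the other SIRT1intKO livers lay between 1.56 and 2.86. Inhbe took the opposite order in WT livers, where replicates 1 and 2 lay below replicates 3 and 4, and its SIRT1intKO replicate 5 lay among the others: it was at 0.42, 0.26, 0.78 and 1.17 in the 4 WT livers, at 1.30 in SIRT1intKO replicate 5 and between 0.96 and 2.15 in the other 6.

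**Figure D3:**
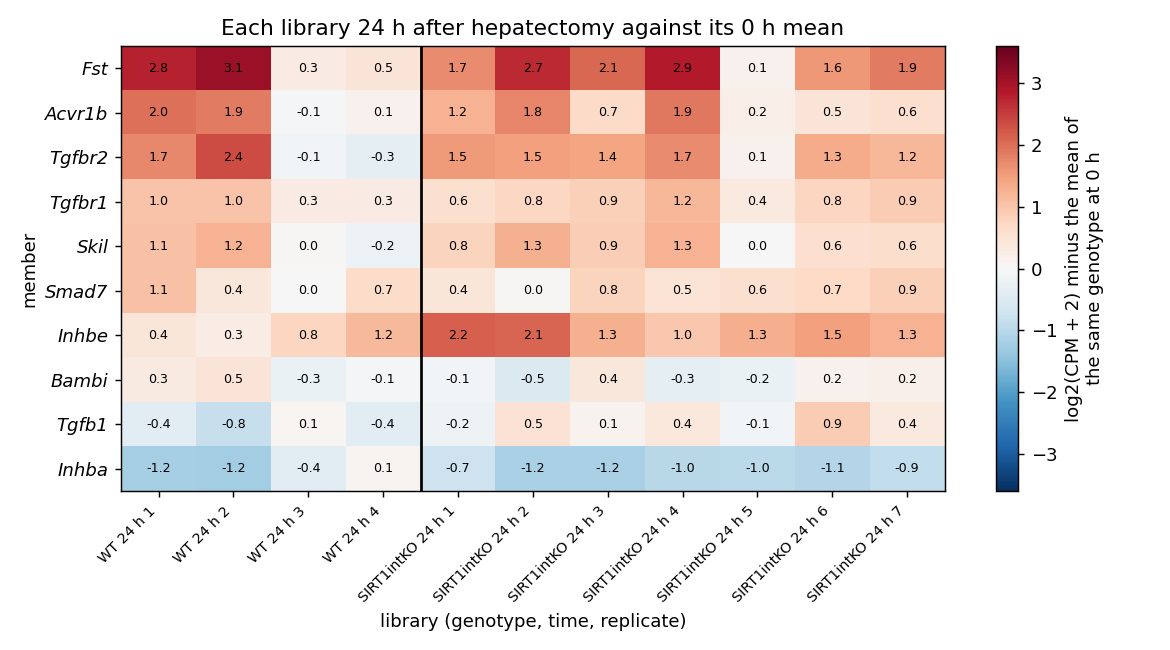
Level of each gene (rows) in each liver taken at 24 hours (columns), as log2(CPM + 2) minus the mean of the same genotype at 0 hours, written in each cell and coloured from blue (lower) to red (higher). Fst reads 2.8 and 3.1 in WT replicates 1 and 2 but 0.3 and 0.5 in WT replicates 3 and 4 and 0.1 in SIRT1intKO replicate 5, whereas Inhba is at -0.7 or lower in every SIRT1intKO liver.

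Leaving out the 3 libraries that stood apart raised the WT calls at 24 hours to 7 of 10, against 49.7% of all genes. The WT log2 changes from 0 hours were then 3.71 for Fst, 2.26 for Tgfbr2, 2.22 for Acvr1b, 1.27 for Skil, 1.18 for Tgfbr1, -2.29 for Inhba and -0.83 for Tgfb1 (largest adjusted p = 0.0382, edgeR). Only 2 WT livers remain in that fit, which takes their spread from the other groups. Leaving out WT replicates 1 and 2 instead left 0 of 10 WT calls at 24 hours, against 5.49% of all genes, with log2 changes of 0.57 for Fst, -0.26 for Tgfbr2, 0.04 for Acvr1b, -0.14 for Skil, 0.32 for Tgfbr1 and -0.19 for Inhba. In that fit 1 of 10, Inhbe, had an unadjusted p under 0.05 (edgeR). The SIRT1intKO calls at 24 hours were 9 and 8 of 10 in these fits, against 54.6% and 52.9% of all genes.

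Between 6 and 24 hours, 1 of the 10 genes passed in each genotype, against 16.5% of all genes in WT and 27.6% in SIRT1intKO mice. These were Inhbe, which fell in WT mice, and Tgfb1, which rose in SIRT1intKO mice. Without the 3 libraries that stood apart, 6 passed in WT mice, against 34.4% of all genes. Fst (1.85), Tgfbr2 (1.60), Skil (1.05), Acvr1b (0.92) and Tgfbr1 (0.65) were then higher at 24 than at 6 hours and Inhbe (-2.31) lower on the log2 scale, with a largest adjusted p of 0.0128 (edgeR). Without WT replicates 1 and 2, 3 of 10 passed, and the direction of Acvr1b was the opposite (-1.24, adjusted p = 0.0264, edgeR). The share of all genes in that fit is not given here, so this count is not set against a background.

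Between genotypes, 0 of the 10 genes passed at 0 hours, 0 at 6 hours and 0 at 24 hours, where 0%, 0% and 5.81% of all genes passed (edgeR). At an unadjusted p under 0.05 these counts were 1, 0 and 2 of 10, against 1.07%, 6.52% and 23.4% of all genes. With DESeq2, 1 of 10 passed at 24 hours, which was Inhbe, and 0 passed in the other genotype comparisons and interactions. The interaction passed for 0 of 10 at 6 hours and 0 of 10 at 24 hours, against 0% and 0.00668% of all genes, and at an unadjusted p under 0.05 for 0 and 2, against 3.05% and 12.7%. The median log2 difference of the 10 genes between genotypes was -0.03, 0.16 and 0.03 at the 3 times.

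The genotype comparison at 24 hours depended on which livers entered it. Without the 3 libraries that stood apart, which come from both genotypes, 3 of 10 genes passed, against 17.5% of all genes. These were Inhba (1.79, adjusted p = 0.00272), Inhbe (1.52) and Tgfb1 (1.15), all higher in SIRT1intKO livers on the log2 scale (edgeR). With all libraries the Inhba difference was 0.34 ± 0.34 (adjusted p = 0.571, edgeR). The fit without the 3 libraries and the next each keep only 2 WT livers at 24 hours, whose spread is taken from the other groups. Both fits were chosen after the data were seen. In the next fit, without WT replicates 1 and 2, 4 passed, against 17% of all genes. These were Fst (2.06, adjusted p = 0.0232), Tgfbr2 (1.77, adjusted p = 0.00635), Acvr1b (1.22, adjusted p = 0.0184) and Skil (0.75, adjusted p = 0.0464, edgeR), also higher in SIRT1intKO livers. WT replicates 1 and 2 were the WT livers high in these same genes, so leaving them out raised these differences in advance. The WT livers kept in the fit without the 3 libraries were the lower in Inhba and Inhbe. No genotype difference is read from either fit. The interaction at 24 hours passed for 1 and 3 of 10 in these fits, against 6.62% and 7.2% of all genes. For Fst, Tgfbr2, Acvr1b and Skil the difference with all libraries was -0.20 ± 0.51, 0.04 ± 0.39, -0.21 ± 0.33 and -0.09 ± 0.24.

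Markers of other cell types moved with some of these genes at 24 hours. At 24 hours 26.2% of all genes passed as higher in SIRT1intKO and 19.5% in WT livers. All 6 listed markers of monocytes and recruited macrophages passed as higher in SIRT1intKO livers, and 4 passed as higher and 1 as lower in WT livers. Their summed level was 67.3 to 113 CPM in untreated WT livers and 1230, 1029, 95.6 and 94.4 CPM in WT replicates 1 to 4 at 24 hours. It was 111 CPM in SIRT1intKO replicate 5 and 313 to 1261 CPM in the other 6 SIRT1intKO livers. The summed level of 6 cholangiocyte markers, of which 4 passed as higher in each genotype, was 84.8, 117, 15.9 and 17.7 CPM in the WT livers at 24 hours and 15.3 CPM in SIRT1intKO replicate 5.

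The summed neutrophil markers followed the same order in WT livers, at 111, 90.8, 13.7 and 7.47 CPM, and reached 953 CPM in SIRT1intKO replicate 2. All 6 hepatocyte markers were present, with a summed level of 60852 to 84962 CPM at 0 hours and 30660 to 71890 CPM at 24 hours. At 24 hours 3 of 6 passed as lower in each genotype. In either direction 34.1% of all genes passed in WT and 50.2% in SIRT1intKO mice. No listed marker of monocytes, neutrophils, cholangiocytes or hepatocytes was at 0 in every library of any group. Across the 34 libraries, after the group means were removed, Fst, Tgfbr2, Acvr1b and Skil followed the monocyte sum with Pearson r of 0.76, 0.77, 0.76 and 0.74 and the cholangiocyte sum with r of 0.78, 0.76, 0.66 and 0.65, whereas Inhbe had r of -0.15 and -0.32. With the monocyte sum the same r was 0.62 for Tgfbr1, 0.17 for Bambi, 0.06 for Tgfb1, 0.03 for Smad7 and -0.48 for Inhba. Removing the group means keeps the split among the livers at 24 hours, which these r therefore include. No r was computed without those livers. These points share libraries and livers, and the part of these cells in the results was not tested.

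Per kilobase of exon, Inhbe had the highest mean of the 10 transcripts in all 6 groups. In WT livers at 24 hours it did not stand beyond the spread, at 5.19 ± 1.62 CPM per kilobase (SD, n = 4) beside Acvr1b at 4.61 ± 3.37 and Tgfbr2 at 4.33 ± 3.74. In WT replicates 1 and 2 at 24 hours Acvr1b, Tgfbr2 and Fst were above Inhbe. In untreated WT livers Inhbe stood at 3.39 ± 1.75 CPM per kilobase (SD, n = 6), not beyond the spread from Acvr1b at 1.65 ± 0.318. Tgfbr1 at 1.62 ± 0.304 and Tgfbr2 at 1.57 ± 0.238 followed, and these 3 receptors did not differ beyond their spread. Fst was the lowest at 0.518 ± 0.280, next to Bambi at 0.548 ± 0.116. At 6 hours in WT livers Inhbe stood at 19.8 ± 7.04 and Inhba at 0.288 ± 0.0932, the lowest. At 24 hours in SIRT1intKO livers (n = 7) Inhbe stood at 11 ± 3.78, Tgfbr2 at 4.46 ± 1.28 and Fst at 3.25 ± 1.88.

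The other genes of the pathway were read from 6 lists of 49 genes, of which 43 passed the filter on low counts. At 6 hours 6 of 43 passed as higher and 0 as lower in WT mice, where 18.9% of all genes passed as higher, and 12 and 1 in SIRT1intKO mice, where 20.9% did. At 24 hours 13 passed as higher and 2 as lower in WT mice, against 19.5% of all genes as higher, and 24 and 1 in SIRT1intKO mice, against 26.2%. Their median log2 change at 24 hours was 0.36 in WT and 0.71 in SIRT1intKO mice. Without the 3 libraries that stood apart the counts at 24 hours were 19 and 4 in WT and 25 and 2 in SIRT1intKO mice, and without WT replicates 1 and 2 they were 0 and 0 in WT and 25 and 3 in SIRT1intKO mice. Between genotypes 0, 0 and 1 of 43 passed at the 3 times, against 0%, 0% and 5.81% of all genes, and 2, 5 and 7 had an unadjusted p under 0.05 (edgeR), against 1.07%, 6.52% and 23.4%. The interactions passed for 0 at 6 and 0 at 24 hours, with 1 and 7 at an unadjusted p under 0.05, against 3.05% and 12.7% of all genes.

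Of 5 further ligand genes tested 3 passed as higher in SIRT1intKO livers at 24 hours, where 26.2% of all genes did, the most being Inhbb, the beta-B chain of activin, at 2.31 ± 0.46 on the log2 scale (adjusted p = 0.000147, edgeR). Its mean was 2.92 ± 1.18 CPM in the 6 untreated livers and 14.6 ± 9.98 CPM in the 7 livers at 24 hours. In WT livers 1 of 5, Nodal, passed as higher at 24 hours, where 19.5% of all genes did. Without WT replicates 1 and 2, where few of all genes passed, 0 of 5 did. Of 4 receptor and coreceptor genes, Eng, the endothelial coreceptor endoglin, fell by 0.62 in WT mice (adjusted p = 0.0472) and by 0.57 in SIRT1intKO mice (adjusted p = 0.0221) at 24 hours, and the other 3 did not pass. Without WT replicates 1 and 2 the WT value of Eng was -0.13 (adjusted p = 0.830). Of the 6 sinusoidal endothelial markers, 5 passed as lower and 0 as higher in WT livers at 24 hours. In SIRT1intKO livers 4 passed as lower and 1 as higher. Of all genes, 34.1% in WT and 50.2% in SIRT1intKO livers passed in either direction.

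Among the 8 latency and activation genes tested, Thbs1, whose product thrombospondin 1 releases TGF-beta from its latent complex, had the largest change. Its mean was 0.768 ± 0.400 CPM in untreated SIRT1intKO livers and 26 ± 11 CPM in those taken at 24 hours, and it rose by 5.06 ± 0.63 on the log2 scale (adjusted p = 1.98e-07, edgeR) and by 3.42 ± 0.60 in WT livers (adjusted p = 7.95e-05). The 4 WT livers at 24 hours held 31.2, 38.8, 4.87 and 2.24 CPM of Thbs1, and replicates 3 and 4 lay inside the untreated range of 0.30 to 5.44 CPM. Without replicates 1 and 2 the WT change was 0.98 (adjusted p = 0.395), and without the 3 libraries that stood apart it was 4.32.

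Of the 10 further inhibitors, 6 passed as higher in each genotype at 24 hours and 0 as lower, where 19.5% of all genes passed as higher in WT and 26.2% in SIRT1intKO mice. The largest in SIRT1intKO livers was Fstl3, a follistatin relative, at 2.65 ± 0.46 (adjusted p = 2.13e-05, edgeR), which reached 1.44 ± 0.548 CPM (SD, n = 7). The untreated SIRT1intKO libraries held 2, 2, 2, 6, 3 and 6 counts of Fstl3, so the size of this change rests on few counts. In WT livers the largest was Tgif1, a Smad corepressor, at 1.43 ± 0.38 (adjusted p = 0.00483). Without WT replicates 1 and 2, where few of all genes passed, the WT count was 0 of 10, and Tgif1 was at -0.21 (adjusted p = 0.830).

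Of the 4 Smads and anchors, 2 passed as higher in SIRT1intKO livers at 24 hours, Smad2 (0.66 ± 0.19, adjusted p = 0.00415, edgeR) and Smad3 (0.59 ± 0.21, adjusted p = 0.0191), and 1 in WT livers, Smad3 (0.67 ± 0.23, adjusted p = 0.0256). The 4 WT livers at 24 hours held 25.6, 10.6, 7.65 and 8.31 CPM of Smad3 against 7.05 to 9.96 CPM at 0 hours, so that replicate 1 alone lay well above the untreated range. Without WT replicates 1 and 2 the WT change of Smad3 was -0.03 (adjusted p = 0.966).

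Of 12 target genes of the pathway, 5 passed as higher in SIRT1intKO and 4 in WT livers at 6 hours, where 20.9% and 18.9% of all genes did. At 24 hours 10 passed as higher in SIRT1intKO livers and 3 in WT livers, where 26.2% and 19.5% of all genes did, with median log2 changes of 1.67 and 0.56. Id1, which encodes an inhibitor of helix-loop-helix factors and responds to BMP as well as TGF-beta ligands, passed in both genotypes and was named after its values were seen. It ranged from 3.88 to 11.6 CPM in untreated WT livers, and the 4 WT livers at 24 hours held 58.5, 31, 12 and 24.4 CPM. In SIRT1intKO livers it ranged from 2.65 to 13.4 CPM at 0 hours and from 23.9 to 55.6 CPM at 24 hours, so that the groups did not overlap in either genotype. Its log2 change was 2.11 ± 0.39 in WT mice (adjusted p = 0.000142, edgeR), or 1.33 without WT replicates 1 and 2 (adjusted p = 0.0692), and 2.63 ± 0.37 in SIRT1intKO mice (adjusted p = 1.07e-06). The smallest of the changes that passed in both genotypes was Tgfbi, at 0.46 ± 0.15 and 0.78 ± 0.13.

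Targets that passed in SIRT1intKO livers and not in WT livers at 24 hours included Col1a1 and Col1a2, which encode type I collagen, and the cell cycle inhibitor genes Cdkn1a and Cdkn2b; Col1a1, Col1a2 and Cdkn1a were named after their values were seen. Their interactions did not pass (smallest adjusted p = 0.188, for Cdkn2b). Cdkn2b, which encodes p15, was the 1 listed gene that passed between genotypes at 24 hours (higher in SIRT1intKO livers, adjusted p = 0.0301, edgeR), with 3, 1, 3 and 2 counts in the 4 WT libraries and 9, 11, 17, 12, 2, 17 and 27 counts in the 7 SIRT1intKO libraries, too few to state a fold. The counts of targets passing in SIRT1intKO livers were 10 of 12 without the 3 libraries that stood apart and 10 of 12 without WT replicates 1 and 2. In WT livers they were 5 and 0 of 12 in these fits. Few of all genes passed in WT livers in the second fit, by the share given above. The count of 0 there is therefore not particular to the targets.

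**Figure D4:**
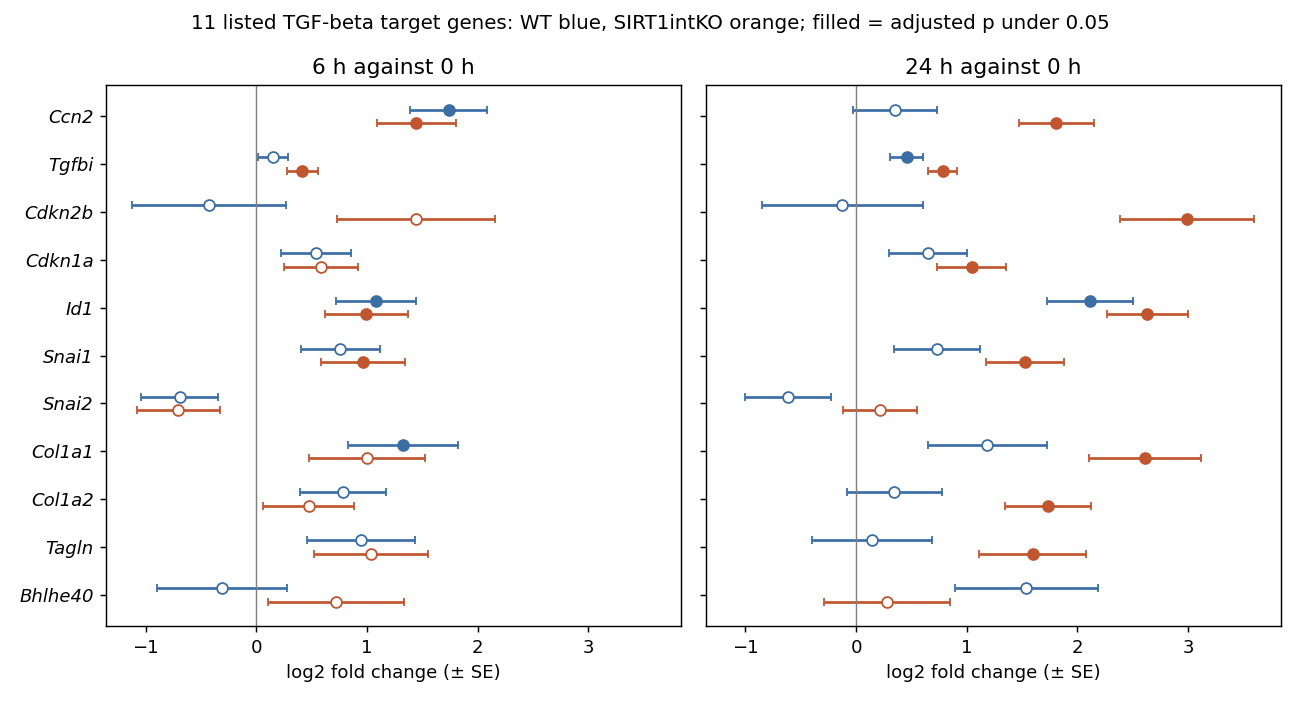
log2 fold change with its SE (horizontal axes) of 11 of the listed TGF-beta target genes (vertical axis) at 6 hours (left) and 24 hours (right) against 0 hours, WT in blue and SIRT1intKO in orange; filled points have an adjusted p under 0.05. At 24 hours 9 orange points are filled against 2 blue points, and Id1 is filled in both at 2.11 and 2.63.

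The genes whose levels most resembled those of each member across the 34 libraries were found by Pearson correlation of log2 CPM among 11413 genes with a mean of at least 1 CPM. For Inhbe they were Sec23a, a coat protein of vesicles leaving the endoplasmic reticulum (r = 0.92, and 0.62 after group means were removed), and Rab30 (0.89 and 0.55). For Fst they were Scamp5 (0.92 and 0.80) and Ccdc71l (0.91 and 0.77), for Tgfbr2 Eepd1 (0.92 and 0.88) and Arhgap23 (0.92 and 0.88), and for Acvr1b Alpk1 (0.93 and 0.82) and Cpne8 (0.92 and 0.85). For Tgfbr1 they were Specc1 (0.93 and 0.81) and Klf6 (0.92 and 0.85), and for Skil Tiparp (0.90 and 0.88) and Il1r2 (0.89 and 0.92).

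For Inhba the nearest genes were Tubgcp4 (0.88 and 0.67) and Apol7a (0.88 and 0.70), and for Tgfb1 they were Il2rg (0.80 and 0.67) and Cxcl16 (0.77 and 0.58), both expressed by immune cells. For Smad7 they were Nr1d1 (0.81 and 0.77), a gene of the circadian clock, and Lrrc42 (0.68 and 0.43), and for Bambi Accs (0.66 and 0.65) and Thbs2 (0.62 and 0.62). These points share time, genotype and library, and the values are descriptions.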

How the data were processed

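Livers were sequenced as bulk RNA with a stranded mRNA library kit on an Illumina NovaSeq X, paired-end. The authors aligned reads with STAR and quantified genes with Salmon in the nf-core/rnaseq workflow, on GRCm39 by the submitters' processing notes, and deposited 1 table of expected counts per gene, with no normalization. Of its values 4.975% are not whole, and they were rounded for the tests. The table has 35 library columns; 34 were matched to the labels by name and 1 was not used. The letter x was missing from the symbols of the table, and 1255 symbols were restored from gene IDs.

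Counts were scaled by TMM and filtered with filterByExpr in edgeR 4.0.16 (R 4.3.3), which left 14980 genes. The quasi-likelihood test was fitted with 1 mean per group over all 34 libraries, with Benjamini-Hochberg adjustment over the genes tested, and every adjusted p of the text comes from this fit unless another is named. A standard error is the log2 fold change divided by the square root of F. Library totals are given above; the common biological coefficient of variation was 0.302. The scripts were tested on simulated data. The labels call the livers biological replicates, and no pair of libraries in a group agreed within sampling noise.

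The 10 genes and all lists were chosen with earlier results of these data known. All 10 are reported in each comparison, the highest and the lowest passing gene of a pathway list may be named, and the 2 genes with the highest r are given as most alike. Levels per kilobase used merged exon lengths of GENCODE vM21, and promoter windows came from RefSeq. Alternatives were DESeq2 1.42.0, other scalings and filters, only the groups compared, a replicate block and leaving out each library; the fits without 3 or 2 of the livers at 24 hours were chosen after seeing the data. One listed target gene is counted with its list and is not reported by itself here.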

Additional observations from a re-analysis of the deposited data

Results flagged for a closer look

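In 6 of the 60 combinations of gene and group, 1 liver lay far from the other livers of its group, by a gap to its neighbour of more than 0.625 of the whole range in a group of 6. For independent, normally distributed values chance alone marks about 1 in 20 groups this way. Levels here were on the linear CPM scale and the genes share libraries, so that rate is no exact benchmark. Inhbe was 178 CPM in WT replicate 3 at 6 hours, where the next liver had 102 CPM, and 28.7 CPM in SIRT1intKO replicate 2 at 0 hours, where the next had 18.6 CPM. Fst was 4.85 CPM in WT replicate 2 at 0 hours, above the next at 2.40 CPM. Smad7 was 12.3 CPM in WT replicate 3 at 0 hours, above the next at 6.41 CPM, and without this liver its WT change at 24 hours passed (0.99, adjusted p = 0.00984, edgeR). Skil was 17 CPM in WT replicate 6 at 6 hours, above the next at 13.6 CPM, and 7.21 CPM in SIRT1intKO replicate 5 at 0 hours, below the next at 9.41 CPM. None of the 20 interaction tests of the 10 genes passed after adjustment.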

How the results depend on the processing

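With all libraries, 30 results of the 10 genes over 11 comparisons passed. DESeq2 size factors in edgeR kept 30 of them, upper-quartile scaling kept 28, the filter of at least 1 count kept 27, at least 10 counts in every library kept 29, and fitting only the groups compared kept 28. DESeq2 kept 30 and gained 1, so that 1 of 10 genes differed between genotypes at 24 hours. No level moved beyond its spread with DESeq2 scaling. Leaving out 1 library at a time, 22 calls held in all 34 fits and 8 were lost at least once, with 0 reversed. The number of genes passing then ran from 3 to 8 for WT at 24 against 0 hours. The lowest count was without WT replicate 2 at 24 hours. The range was 1 to 3 for WT and 1 to 2 for SIRT1intKO mice at 24 against 6 hours. It was 0 to 1 between genotypes at 24 hours. The share of all genes in each fit is not given here, so these ranges describe only the dependence on single libraries.

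Without the 3 libraries that stood apart, 6 passed for WT at 24 against 6 hours, 2 for SIRT1intKO at 24 against 6 hours, 3 between genotypes at 24 hours and 1 in the interaction at 24 hours. Without WT replicates 1 and 2 at 24 hours the counts were 0 for WT at 24 against 0 hours, 3 for WT at 24 against 6 hours, 4 between genotypes and 3 in the interaction at 24 hours. In this last fit 7 log2 values had the opposite sign from the fit with all libraries and passed in 1 of the 2 fits. Of these, Tgfbr2 (-0.26) and Skil (-0.14) for WT at 24 against 0 hours had passed with all libraries. The others were Acvr1b (-1.24) for WT at 24 against 6 hours, Acvr1b (1.22), Fst (2.06) and Skil (0.75) between genotypes at 24 hours, and Tgfbr2 (1.69) in the interaction at 24 hours. With all libraries these had not passed and lay between -0.21 and 0.20, so they had no called direction to reverse. The cause was not tested. Where the share of all genes in the same fit is not given above, a count describes only the dependence on these livers.

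The replicate numbers did not pair the libraries: over 76 pairs with the same number in different groups the median correlation of deviations was -0.0036, 6 exceeded 0.1, and 2 of 34 libraries correlated best with their own number. With the replicate block 27 of 30 calls were kept. In that fit 7 genes passed in each genotype at 6 hours, and 4 in WT and 7 in SIRT1intKO mice at 24 against 0 hours. At 24 against 6 hours 1 passed in each genotype, and 0 passed between genotypes and in the interactions. The share of all genes in that fit is not given here, so these counts describe only the dependence on the block.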
